A study of Homo sapiens with 6 samples.

Results

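Transcripts of 10 genes that encode RNA-degrading enzymes and RNA-binding decay factors were followed in azacitidine-resistant and azacitidine-sensitive K562 cells. They are the regnase genes ZC3H12A, ZC3H12B, ZC3H12C and ZC3H12D, the related ribonuclease gene N4BP1, the Roquin genes RC3H1 and RC3H2, and the AU-rich element binding genes ZFP36, ZFP36L1 and ZFP36L2. The set was named by gene, but it was chosen from measured values of this same comparison, in which ZC3H12C had already been seen to differ, so the differences of these 10 genes are given as a description with no p-value. They are 10 of the 61487 gene IDs counted and all 10 were among the 20891 that passed the filter on low counts.

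K562 is an established line from a chronic myeloid leukaemia that carries the BCR-ABL1 fusion. The 3 resistant libraries come from a population derived from the line by continuous exposure to rising azacitidine concentrations for more than 4 months, and the 3 sensitive libraries come from the line it was derived from. Azacitidine is a cytidine analogue that enters RNA and DNA and traps DNA methyltransferases. Both groups grew in the same RPMI medium with serum and antibiotics, and the labels give no drug dose for either group. Every library name in both groups ends in NT, an abbreviation that the sample titles do not spell out. Differences tied to resistance cannot be told apart from other changes in the derived population. The replicates are labelled biological, but nothing says that they came from separate cultures, and the p-values therefore reflect only how much these libraries vary.

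An mRNA is usually removed by shortening its poly(A) tail, after which the cap is taken off or the body is digested by the exosome. Regnases carry a PIN-type nuclease domain beside a CCCH zinc finger, and the best-studied of them, ZC3H12A (regnase-1), cuts stem-loops in the 3′ untranslated regions (3′UTRs) of cytokine and other inflammatory mRNAs. Roquins bind similar stem-loops and recruit the CCR4-NOT deadenylase, ZFP36 proteins bring the same deadenylase to AU-rich elements, and N4BP1 is a nuclease of the regnase type. In immune cells these proteins limit inflammation, and the protease MALT1 cleaves several of them.

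Total counts lay between 33007642 and 37991708 in the resistant and between 34924828 and 43006918 in the sensitive libraries. Mitochondrial ribosomal RNA took 17.8%, 16.8% and 8.54% of counts in resistant replicates 1, 2 and 3, against 14.0%, 16.2% and 12.8% in sensitive replicates 1, 2 and 3. The first principal component (66.3% of the variance) separated the groups, and the second (18%) set the library numbered 3 of each group apart from its other libraries. Of 15 K562 and erythroid identity genes 14 were tested, of which BCR and ABL1 rose and LMO2 fell, and GATA1 and TAL1 had between 55.7 and 128.5 CPM (counts per 1000000 counted) in every library. The labels name the cells myeloblasts, yet the myeloblast genes MPO and ELANE had at most 0.12 CPM in any library, and S100A8 had no counts. Of 12 lymphocyte markers 7 were tested, 1 rose (CD22) and 4 fell (CD3D, CD3E, CD3G and CD79B). Their summed level was between 19.2 and 26.3 CPM in resistant and between 31.1 and 122 CPM in sensitive libraries, with CD8A and MS4A1 at 0 in all 6. Of 12 monocyte and granulocyte markers 4 were tested and 2 fell (LYZ and CSF3R), with summed levels between 44.4 and 67.4 CPM in resistant and between 75.0 and 129 CPM in sensitive libraries. Of 12 fibroblast and epithelial markers 10 were tested, 2 rose and 3 fell, with summed levels between 417 and 576 CPM in resistant and between 545 and 703 CPM in sensitive libraries. The part of these marker differences in the values that follow was not tested.

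Over all genes tested, edgeR's quasi-likelihood test called 23.0% at a Benjamini-Hochberg adjusted p below 0.05, with 9.83% higher and 13.1% lower in resistant cells (2054 and 2741 genes), and the median log2 fold change was 0.03. With library totals alone as the scaling, the median of all genes shifted by 0.17 and the calls split into 3041 higher and 2118 lower. The CPM ranges of the groups did not overlap for 40.1% of genes. Among the 10 genes, 2 were called higher (ZC3H12B and RC3H1) and 1 was called lower (ZC3H12C). The remaining 7 were not called, and the same 3 called genes were the ones whose groups did not overlap. The median log2 fold change of the 10 was 0.18, with 6 values above and 4 below 0. Nothing is read from these counts, since the comparison served to choose the genes.

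**Figure D1:**
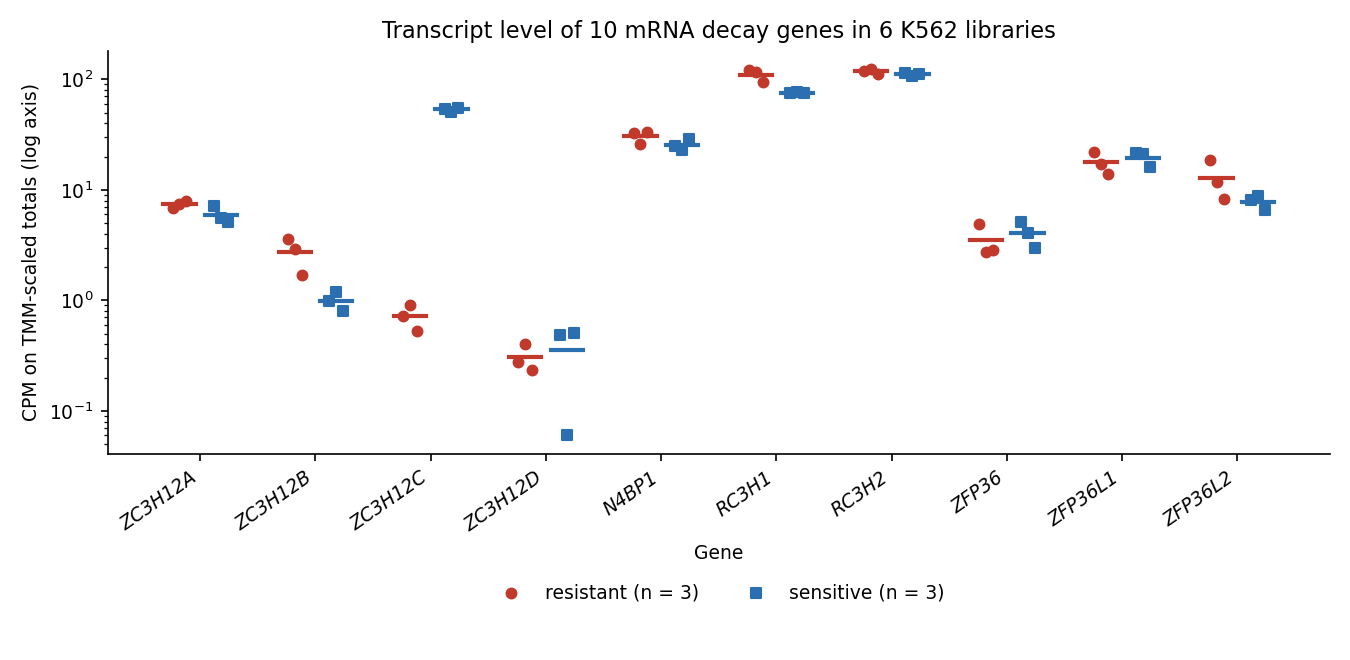
Level of the 10 genes in each library, in CPM on TMM-scaled totals (log axis), with the 3 resistant libraries as circles left of the 3 sensitive libraries as squares and the mean of each group as a bar. ZC3H12C lay between 0.52 and 0.91 CPM in resistant libraries against 50.6 to 55.3 CPM in sensitive libraries, while most other genes overlapped between the groups.

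ZC3H12C showed by far the largest difference of the 10. It encodes regnase-3, for which a role in restraining inflammation has been described in mice. The gene (ENSG00000149289) lies on the + strand of chromosome 11 at chr11:110093361-110171841 (GRCh38, GENCODE 29). It had 26, 36 and 20 counts in the resistant libraries, against 2216, 1683 and 2066 counts in the sensitive libraries. These were 0.72, 0.91 and 0.52 CPM in resistant replicates 1, 2 and 3, against 54.2, 50.6 and 55.3 CPM in sensitive replicates 1, 2 and 3. All resistant libraries were low and all sensitive libraries high, with no value in between. The mean was 0.717 ± 0.190 CPM in resistant and 53.4 ± 2.47 CPM in sensitive cells (SD, n = 3 each), and the resistant mean was 1.34% of the sensitive one. The fitted log2 fold change was -6.21 ± 0.23 (SE), a level 74.0-fold lower in resistant cells. It lay between -6.42 and -6.01 over the 16 alternative analyses. A more negative fold change was fitted for 96 of the 20891 genes tested, and for 53 of the 15061 genes with a mean of at least 1 CPM. In bulk RNA, fewer cells that transcribe a gene and less RNA per cell cannot be told apart, so the counts left in the resistant libraries may come from few cells or from many.

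The region before the annotated starts of ZC3H12C is shown because azacitidine acts on cytosine methylation, which occurs mainly at CG dinucleotides. No methylation was measured here, and the counts per gene do not show which start was used. RefSeq (GRCh38.p14) gives 2 starts, and each sequence covers 250 bases before the start and 50 bases after it, on the + strand, with every CG in capitals. The first lies at chr11:110093142-110093441 and the second at chr11:110130750-110131049.
ZC3H12C upstream start: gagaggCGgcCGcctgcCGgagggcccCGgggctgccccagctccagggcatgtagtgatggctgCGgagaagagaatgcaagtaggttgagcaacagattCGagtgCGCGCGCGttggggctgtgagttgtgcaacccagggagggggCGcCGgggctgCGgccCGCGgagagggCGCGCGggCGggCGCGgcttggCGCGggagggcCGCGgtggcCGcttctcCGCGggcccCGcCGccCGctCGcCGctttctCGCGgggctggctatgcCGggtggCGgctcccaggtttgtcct
ZC3H12C downstream start: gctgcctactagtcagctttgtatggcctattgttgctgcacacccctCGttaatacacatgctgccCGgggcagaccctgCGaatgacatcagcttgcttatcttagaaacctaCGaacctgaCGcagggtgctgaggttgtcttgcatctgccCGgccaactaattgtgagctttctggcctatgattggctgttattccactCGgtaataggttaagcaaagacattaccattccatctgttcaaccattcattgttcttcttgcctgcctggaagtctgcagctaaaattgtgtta
The upstream sequence held 37 CG dinucleotides, a number reached by 11.3% of 35116 promoter sequences of the same length, whose median was 14. The downstream sequence held 7, a number reached by 63.2% of them. Promoter sequences were found for 8 of the 10 genes. Those of ZC3H12B and RC3H1, called higher, held 28 and 0 CG dinucleotides, but neither lies at the start of the GENCODE 29 gene. The ZC3H12B sequence (chrX:65034576-65034875) lies far before the gene start at chrX:65366638 and overlaps the end of ZC4H2. The RC3H1 sequence (chr1:173993023-173993322) lies inside the gene, whose - strand span begins at chr1:174022297. Their counts therefore do not describe the sequence at those GENCODE 29 starts. Among genes not called, that of ZC3H12A held 46, ZFP36 29, N4BP1 28 and RC3H2 19, and ZFP36L1 held 25 and 9 at separate starts. The N4BP1 sequence (chr16:48610131-48610430) also lies inside its gene, whose - strand span begins at chr16:48620148.

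The genes on either side of ZC3H12C were also read. FDX1, which encodes an electron carrier of mitochondrial steroid synthesis and iron-sulphur cluster formation, is the nearest protein-coding gene that starts beyond its end, 258042 bases away. Protein-coding genes whose span overlaps that of ZC3H12C were not read. FDX1 had 15.2, 16.2 and 20.7 CPM in resistant libraries, against 32.0, 29.04 and 42.5 CPM in sensitive libraries. It was lower in all resistant libraries, with a log2 fold change of -0.99 ± 0.20 (edgeR adjusted p = 0.00586). C11orf87, the nearest protein-coding gene that ends before the start of ZC3H12C, at 664247 bases, had no counts in 5 of 6 libraries and was not tested.

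ZC3H12A, the gene of regnase-1, had 6.89, 7.39 and 7.95 CPM in resistant libraries, against 7.14, 5.53 and 5.14 CPM in sensitive libraries. The groups overlapped through sensitive replicate 1, and the log2 fold change of 0.32 ± 0.22 was not called. A microRNA gene, MIR6732, overlaps 60 of its exonic bases and had no counts in any library.

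ZC3H12B, the X-linked regnase gene, had 3.60, 2.92 and 1.71 CPM in resistant libraries, against 0.98, 1.20 and 0.80 CPM in sensitive libraries. All resistant values lay above all sensitive ones, with resistant replicate 3 nearest to them. The log2 fold change was 1.46 ± 0.38 and called higher, though the call was lost without sensitive replicate 1 or 3, or without resistant replicate 1 or 2, with values between 1.22 and 1.43. The nearest protein-coding genes outside its span, ZC4H2 and LAS1L, were not called, at log2 fold changes of -0.46 ± 0.59 and 0.04 ± 0.18.

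ZC3H12D, the gene of regnase-4, had few counts. It had 10, 16 and 9 counts in resistant libraries, against 20, 2 and 19 counts in sensitive libraries. The groups overlapped and the log2 fold change was -0.22 ± 0.70, with an interval of -1.62 to 1.18 (2 SE to either side), so a difference of 2-fold in either direction is not excluded. The sensitive libraries differed widely among themselves. Its sign changed in 4 alternatives.

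Within the regnase genes the level per length was set mostly by ZC3H12A in resistant cells and by ZC3H12C in sensitive cells. Levels between genes were compared as CPM per kilobase (kb) of merged exons. ZC3H12C made up 2.66%, 3.22% and 1.89% of the summed level of the 4 genes in resistant libraries, against 69.2%, 72.9% and 75.7% in sensitive libraries. ZC3H12A made up 83.5 ± 5.15% in resistant and 25.0 ± 3.24% in sensitive cells (SD, n = 3 each). ZC3H12B made up 12.3 ± 4.47% in resistant and 1.69 ± 0.41% in sensitive cells. ZC3H12D stayed at 2.07% or less in every library. These shares are of a smaller sum in resistant cells: the 4 genes together had 2.84 ± 0.06 CPM per kb in resistant and 7.57 ± 0.46 CPM per kb in sensitive cells. ZC3H12A therefore held a larger share at a level that was not called different.

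**Figure D2:**
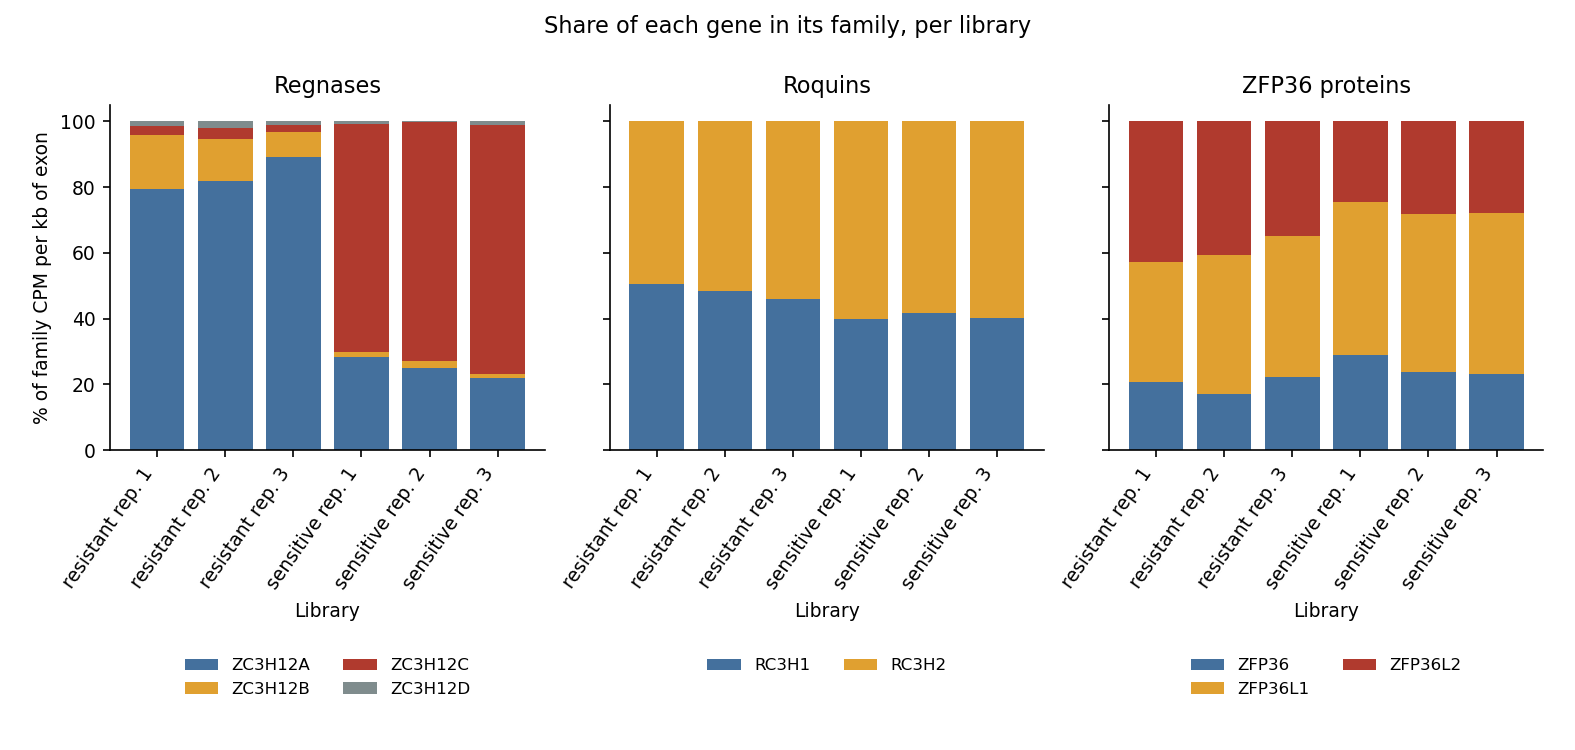
Share of each gene in the summed CPM per kb of exon of its family (percent), in the 3 resistant libraries on the left and the 3 sensitive libraries on the right of each panel. ZC3H12C made up 2.59% of the regnase sum on average in resistant libraries against 72.6% in sensitive libraries, while the Roquin and ZFP36 panels shifted by less.

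N4BP1, whose protein also restrains cytokine mRNAs in immune cells, had 32.6, 26.1 and 33.7 CPM in resistant libraries, against 24.9, 22.7 and 28.6 CPM in sensitive libraries. The groups overlapped, and the log2 fold change of 0.28 ± 0.17 was not called.

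RC3H1, the gene of Roquin-1, had 120.7, 115.9 and 94.1 CPM in resistant libraries, against 75.8, 76.5 and 75.1 CPM in sensitive libraries. Resistant replicate 3 was the lowest of its group and still above every sensitive library. The mean was 110.3 ± 14.2 CPM in resistant and 75.8 ± 0.70 CPM in sensitive cells (SD, n = 3 each). The log2 fold change of 0.54 ± 0.15 was called higher, but the call was lost without any 1 sensitive library, without resistant replicate 1 or 2, and with no filter on low counts, at values between 0.47 and 0.52. The nearest protein-coding genes outside the span of RC3H1 fell on both sides. SERPINC1, the antithrombin gene, had a log2 fold change of -3.22 ± 0.48 (edgeR adjusted p = 0.00121) at 0.19 ± 0.07 CPM in resistant and 1.83 ± 0.59 CPM in sensitive cells, and RABGAP1L one of -0.68 ± 0.15 (edgeR adjusted p = 0.00959).

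RC3H2, the gene of Roquin-2, had 118.7, 123.8 and 110.8 CPM in resistant libraries, against 115.1, 108.0 and 112.3 CPM in sensitive libraries. The groups overlapped, and the log2 fold change of 0.08 ± 0.14 (interval -0.20 to 0.35) was not called. RC3H1 made up 48.3 ± 2.25% of the Roquin sum per kb in resistant and 40.5 ± 0.93% in sensitive cells (SD, n = 3 each). The Roquin sum itself was 19.8 ± 1.73 CPM per kb in resistant and 16.3 ± 0.28 CPM per kb in sensitive cells.

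The ZFP36 genes did not separate the groups. ZFP36, the gene of tristetraprolin, had 4.90, 2.72 and 2.83 CPM in resistant libraries, against 5.13, 4.09 and 2.97 CPM in sensitive libraries, with a log2 fold change of -0.22 ± 0.33. ZFP36L1 had 22.1, 17.3 and 13.9 CPM in resistant libraries, against 21.4, 21.1 and 16.1 CPM in sensitive libraries, with a log2 fold change of -0.14 ± 0.21 that turned to 0.030 with library totals alone. Both genes overlapped between the groups and neither was called. ZFP36L2 had 18.6, 11.9 and 8.18 CPM in resistant libraries, against 8.04, 8.84 and 6.54 CPM in sensitive libraries. Resistant replicates 1 and 2 lay above all sensitive libraries and resistant replicate 3 lay among them. The log2 fold change of ZFP36L2 was 0.72 ± 0.29 and not called. It was 0.37 without resistant replicate 1 and not called. It was called at 0.94 without resistant replicate 3, at 0.84 without both libraries numbered 3, at 0.69 with no filter on low counts and at 0.66 with the replicate block. ZFP36L2 made up 39.5 ± 4.01% of the ZFP36 sum per kb in resistant and 26.8 ± 1.97% in sensitive cells (SD, n = 3 each), with the ranges apart, while the sum was 8.66 ± 2.79 CPM per kb in resistant and 7.92 ± 1.36 CPM per kb in sensitive cells.

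**Figure D3:**
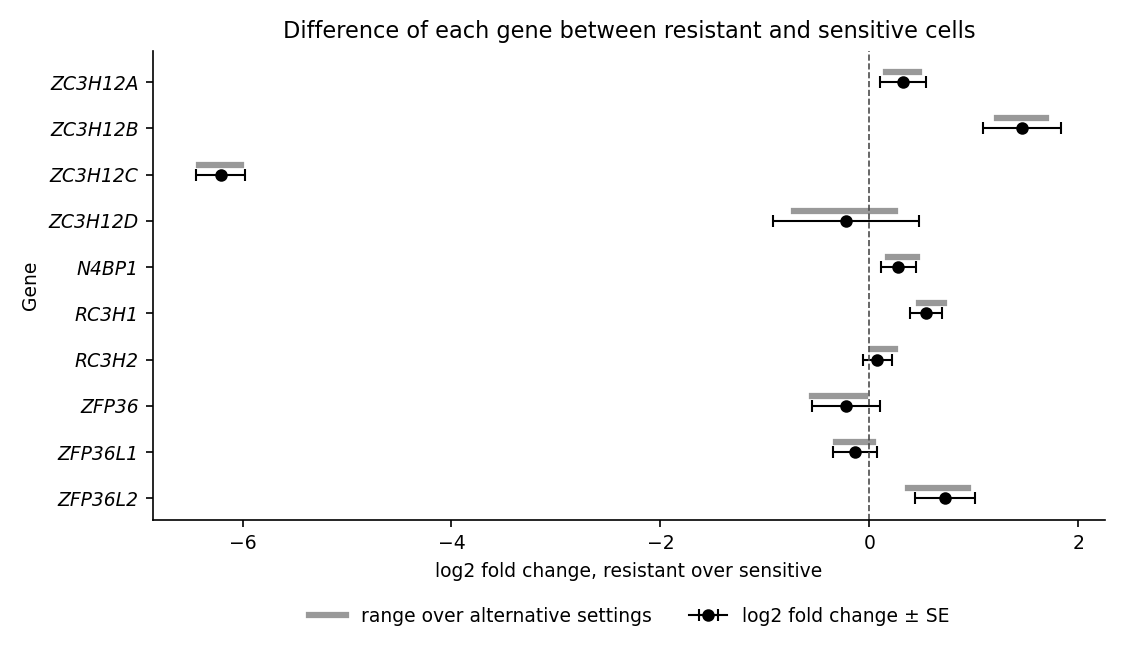
Log2 fold change (resistant over sensitive) of the 10 genes as points with SE bars, and the range over the alternative analyses as grey lines. ZC3H12C stands at -6.21 and the other 9 genes lie between -0.22 and 1.46, with the grey lines of ZC3H12D and ZFP36L1 crossing 0.

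Ranked by mean CPM per kb in resistant cells, RC3H2 stood first with 10.2, followed by RC3H1 with 9.58, N4BP1 with 3.93, ZFP36L2 with 3.48, ZFP36L1 with 3.45, ZC3H12A with 2.37, ZFP36 with 1.73, ZC3H12B with 0.35, ZC3H12C with 0.074 and ZC3H12D with 0.045. The library ranges of neighbours in this order overlapped except below RC3H1, ZFP36L1, ZFP36 and ZC3H12B. Ranked the same way in sensitive cells, RC3H2 stood first with 9.68, followed by RC3H1 with 6.59, ZC3H12C with 5.49, ZFP36L1 with 3.79, N4BP1 with 3.24, ZFP36L2 with 2.11, ZFP36 with 2.02, ZC3H12A with 1.90, ZC3H12B with 0.13 and ZC3H12D with 0.052. Here ZFP36L1 overlapped with N4BP1, and ZFP36L2, ZFP36 and ZC3H12A overlapped in turn. ZC3H12C thus stood at rank 3 of the 10 in sensitive cells and at rank 9 in resistant cells, where its range overlapped that of ZC3H12D.

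Some of these decay factors carry the AU-rich element that ZFP36 proteins bind. The nonamer UUAUUUAUU, searched on the transcribed strand of 1 coding transcript per gene (GENCODE 29), occurred in the 3′UTRs of 5 of the 10 genes and in 7.95% of 19572 3′UTRs. These shares are not matched for length. The 3′UTRs of the 10 genes ran from 713 bases (ZFP36) to 7507 bases (RC3H1), against a median of 1220 bases over tested genes with a 3′UTR. Each site is shown with 6 bases to either side and the nonamer in capitals, because the nonamer is the sequence that ZFP36 proteins, themselves members of the set, are known to bind.
RC3H2 first: guuaacUUAUUUAUUucuauu
RC3H2 second: gacauuUUAUUUAUUucacuc
ZC3H12C: cacccaUUAUUUAUUagagau
ZFP36: acgacuUUAUUUAUUcuaaua
ZFP36L1: guuggaUUAUUUAUUuuagaa
ZFP36L2: uuuaacUUAUUUAUUaucuug
The RC3H2 sites lie at chr9:122849203-122849223 and chr9:122847706-122847726 on the - strand, and the ZC3H12C site at chr11:110170161-110170181 on the + strand (GRCh38). The ZFP36 site lies at chr19:39409200-39409220 on the + strand, and the ZFP36L1 and ZFP36L2 sites at chr14:68788081-68788101 and chr2:43223452-43223472 on the - strand. A match is not evidence of binding. ZC3H12C, the gene with the large difference, and RC3H2, at a log2 fold change of 0.08, both hold the motif, and ZC3H12B and RC3H1 do not.

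The general decay machinery covered 66 tested genes of deadenylation, decapping, the exosome and nonsense-mediated decay. Their median log2 fold change was 0.09, beside 0.03 over all genes tested, and the largest absolute value was 1.32. Of the 66, 14 rose and 3 fell, beside 9.83% higher and 13.1% lower of all genes tested. The 20 deadenylation genes had 4 rising, 2 falling and a median of 0.07. Leaving out any 1 library other than resistant replicate 3 gave 2 rising, and leaving out that library gave 8 rising and 5 falling. CNOT6, a catalytic CCR4-NOT subunit, rose to 68.0 ± 6.95 CPM in resistant cells, against 33.3 ± 2.59 CPM in sensitive cells (log2 fold change 1.03 ± 0.15, edgeR adjusted p = 0.000952). TOB2, an adaptor that brings CCR4-NOT to mRNAs, rose by 1.00 ± 0.16 (edgeR adjusted p = 0.00157). BTG1, a related adaptor, fell to 25.7 ± 1.25 CPM in resistant cells, against 46.9 ± 9.92 CPM in sensitive cells (edgeR adjusted p = 0.00745). PAN2, a deadenylase of another complex, fell by 0.67 ± 0.20 (edgeR adjusted p = 0.0343), a call lost in 5 alternatives.

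The 19 genes of decapping and 5′-to-3′ decay had 5 rising, none falling in edgeR, DESeq2 or limma-voom or at an unadjusted edgeR p below 0.05, and a median of 0.20. Those rising made up 26.3%, beside 9.83% higher and 13.1% lower of all genes tested. The 5 became 1 without sensitive replicate 1 or either of resistant replicates 1 and 2, and 2 without sensitive replicate 2 or 3. Without resistant replicate 3, 1 gene of the list fell, and 2 fell without both libraries numbered 3. LSM14B, a P-body protein, rose to 34.3 ± 2.77 CPM in resistant cells, against 18.7 ± 1.13 CPM in sensitive cells (edgeR adjusted p = 0.00265), and it was called in all alternatives at the same threshold. EDC3, an enhancer of decapping, had a log2 fold change of 1.07 ± 0.27, DCPS, which hydrolyses the cap left after decay, 0.53 ± 0.15, and XRN1, the 5′-to-3′ exonuclease, 0.54 ± 0.16. These 3 rose at edgeR adjusted p values of 0.0182, 0.0295 and 0.0365, and each call was lost in 4 to 6 alternatives.

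The 17 exosome and 3′-to-5′ decay genes had 3 rising (17.65%), 1 falling (5.88%) and a median of -0.06 (0.11 with library totals alone). Of all genes tested 9.83% were higher and 13.1% lower. The list had 1 rising without sensitive replicate 1 or 2 or resistant replicate 2. EXOSC6, an exosome core subunit, rose to 90.5 ± 7.42 CPM in resistant cells, against 47.6 ± 4.16 CPM in sensitive cells (edgeR adjusted p = 0.00158). EXOSC1, a subunit of its cap, fell to 22.9 ± 3.76 CPM in resistant cells, against 40.0 ± 6.01 CPM in sensitive cells (edgeR adjusted p = 0.0102), a call lost without resistant replicate 2. The nucleases DIS3L and DIS3L2 rose by 0.70 ± 0.15 and 0.51 ± 0.15 (edgeR adjusted p = 0.00916 and 0.0399), calls lost in 3 and 7 alternatives.

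Of 10 nonsense-mediated decay genes 2 rose, and none fell in edgeR, DESeq2 or limma-voom or at an unadjusted edgeR p below 0.05. The shares over all genes tested were 9.83% higher and 13.1% lower, and whether this short list differs from them was not tested. The median of the list was 0.32, with 1 rising when any library but resistant replicate 3 was left out. SMG1, the kinase that phosphorylates UPF1, rose by 0.74 ± 0.22 (edgeR adjusted p = 0.0363), a call lost in 6 alternatives.

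Other RNA-binding regulators had 8 rising (34.8%) and 3 falling (13.0%) of 23 tested, with a median of 0.42. Of all genes tested 9.83% were higher and 13.1% lower. The number rising was 4 without sensitive replicate 2 and 5 without sensitive replicate 1 or resistant replicate 2, while 3 fell whichever library was left out. SAMD4A, a homologue of the fly repressor Smaug, fell by 2.09 ± 0.34 on the log2 scale (edgeR adjusted p = 0.00189). KHNYN, a nuclease that works with ZC3HAV1 against CG-rich viral RNA, fell to 34.7 ± 4.42 CPM in resistant cells, against 66.1 ± 12.0 CPM in sensitive cells (edgeR adjusted p = 0.00485). ZC3HAV1 itself rose to 181.8 ± 4.07 CPM in resistant cells, against 102.1 ± 14.2 CPM in sensitive cells (edgeR adjusted p = 0.00453). ELAVL1, the gene of HuR, which stabilizes AU-rich mRNAs, rose to 85.6 ± 12.6 CPM in resistant cells, against 49.3 ± 2.33 CPM in sensitive cells (edgeR adjusted p = 0.00495).

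Among 17 genes whose products modify regnases, Roquins or ZFP36 proteins, 3 fell (17.65%) and none rose in edgeR, DESeq2 or limma-voom or at an unadjusted edgeR p below 0.05, with a median of -0.10. Of all genes tested 13.1% were lower and 9.83% higher. With library totals alone 1 rose and the median was 0.08. The number falling was 1 without sensitive replicate 1 or resistant replicate 2. MALT1, the protease that cleaves regnase-1, Roquins and N4BP1 in lymphocytes, had 9.30, 9.73 and 11.3 CPM in resistant libraries, against 28.1, 27.0 and 23.0 CPM in sensitive libraries. It was lower in all resistant libraries, with a log2 fold change of -1.36 ± 0.17 (edgeR adjusted p = 0.00039), and called in all alternatives at the same threshold. The p38 kinase MAPK11 fell by 0.79 ± 0.19 and the kinase MAPKAPK3 by 0.50 ± 0.15 (edgeR adjusted p = 0.0147 and 0.0343), calls lost in 2 and 8 alternatives.

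**Figure D4:**
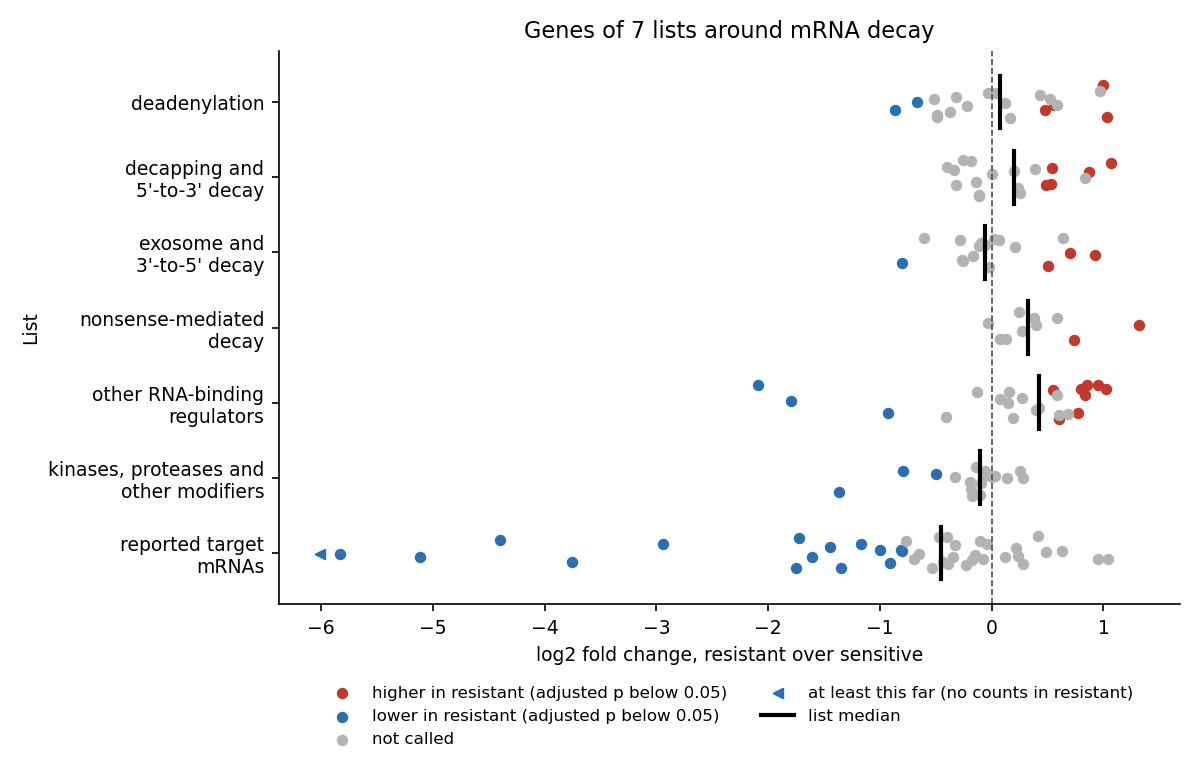
Log2 fold change (resistant over sensitive) of each tested gene in 7 lists, with genes called higher in red, genes called lower in blue, genes not called in grey and the median of each list as a black bar. The list medians run between -0.46 (reported target mRNAs) and 0.42 (other RNA-binding regulators), and PTGS2 is drawn at its lower bound with an arrow.

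Of 50 mRNAs reported elsewhere as targets of these factors, mostly from immune cells, 40 were tested. In resistant cells 15 fell (37.5%) and 25 were not called, beside 13.1% lower and 9.83% higher of all genes tested. The median log2 fold change of the list was -0.46, beside 0.03 over all genes tested. None rose at an adjusted p below 0.05 in edgeR, DESeq2 or limma-voom, and 3 did at an unadjusted edgeR p below 0.05. Leaving out resistant replicate 2 gave 7 falling, leaving out sensitive replicate 1 gave 8 and leaving out sensitive replicate 2 gave 9, whereas 22 fell without both libraries numbered 3. The list was made with earlier results of these data known, among them the fall of BCL2, and 14 of 39 fell without BCL2. Leaving out BCL2 does not undo that choice, and the shares are given as a description. The median of the list, relative to the sensitive mean of each gene, was -0.59, -0.58 and -0.22 in resistant replicates 1, 2 and 3, against 0.10, 0.08 and -0.21 in sensitive replicates 1, 2 and 3. The libraries numbered 3 of both groups were thus close to each other and between the rest. Several of these mRNAs are typical of the monocytes and lymphocytes whose markers also differed between the groups, and the part of such cells was not tested.

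The 4 target genes with the smallest adjusted p were CCND1, BCL2, NFKBIZ and PTGS2. CCND1, the cyclin D1 gene, had 1.94, 2.09 and 0.97 CPM in resistant libraries, against 37.8, 37.7 and 30.0 CPM in sensitive libraries (log2 fold change -4.40 ± 0.29, edgeR adjusted p = 7.42e-06). BCL2, an inhibitor of apoptosis, had 1.69, 1.33 and 1.44 CPM in resistant libraries, against 18.2, 19.9 and 22.5 CPM in sensitive libraries (log2 fold change -3.76 ± 0.21, edgeR adjusted p = 2.84e-06). NFKBIZ, a nuclear NF-κB cofactor and a known regnase-1 and Roquin target, had 6.95, 7.02 and 8.03 CPM in resistant libraries, against 24.3, 23.7 and 26.0 CPM in sensitive libraries (log2 fold change -1.75 ± 0.16, edgeR adjusted p = 6.31e-05). All 3 were low in every resistant library and high in every sensitive one. PTGS2, the cyclooxygenase-2 gene and a classical ZFP36 target, had no counts in resistant libraries, against 52, 39 and 76 counts in sensitive libraries, at least 56.9-fold lower (edgeR adjusted p = 0.000381). These 4 were called in all alternatives at the same threshold that tested them, and PTGS2 was not tested under the minimum of 50 counts in 3 libraries. The other 11 that fell, read after their values were seen, lay between -5.12 for CXCL8 and -0.80 for JUNB, with CXCL8 at 0.55 ± 0.38 CPM in resistant and 19.4 ± 14.3 CPM in sensitive cells. MYC, MCL1 and DUSP1 were not called, at -0.47, -0.44 and -0.33, and EGR1 and FOS stood at 1.04 and 0.63 without being called.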

How the data were processed

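RNA was measured in 3 libraries of azacitidine-resistant and 3 of azacitidine-sensitive K562 cells. Per the labels' protocols, DNase-treated total RNA was sequenced in pairs from a stranded kit with ribosomal RNA removal. The authors deposited raw counts per Ensembl gene, and Trimmomatic 0.39, HISAT2 2.2.1, Subread 2.0.3 and featureCounts were used on the build GRCh38, per the submitters' processing notes. No source used here gives the annotation release or the strand setting of the counting, so genes that overlap are uncertain. Among the exons of the 10 genes the overlap was that of ZC3H12A with MIR6732.

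The comparison was made in R 4.3.3 with edgeR 4.0.16 (filterByExpr, TMM factors, robust quasi-likelihood test, two-sided, adjusted over all 20891 genes tested). CPM values use TMM-scaled totals. Each SE was taken from the quasi-likelihood F of the gene, as the log2 fold change over its root. At these depths 1 count was worth between 0.0244 and 0.0301 CPM. A bound against a group with no counts sets that group at 3 counts in all and covers counting error only. Symbols were found for 61369 of 61487 IDs, and positions, exon lengths and 3′UTRs came from GENCODE 29. The members and gene lists were chosen with earlier results of these data known, including the fall of ZC3H12C and BCL2. The genes named were the members, up to 4 called genes per list with the smallest adjusted p, the 3 genes most like ZC3H12C, and the nearest protein-coding neighbours of called members. The genes most like ZC3H12C are left out, since most had no counts in resistant libraries and their likeness rested on the prior count, and 2 genes this rule names are not reported here. Overlap between groups was read from CPM. Neighbours were taken only among protein-coding genes whose span does not overlap that of the member.

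The alternatives were DESeq2 1.42.0 size factors, library totals alone, no filter, at least 50 counts in 3 libraries, DESeq2, limma-voom (limma 3.58.1), a replicate block, offsets for length and GC content, each library left out in turn, both libraries numbered 3 left out, an adjusted p below 0.01, and longest transcripts for the shares. The steps were tested on simulated data, where false calls exceeded their nominal share. A first requirement on the share of large changes recovered was not met there and was replaced by checks of bias, direction and order.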

Additional observations from a re-analysis of the deposited data

How the results depend on the processing

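The log2 fold change of ZC3H12C lay between -6.42 and -6.01 over the 16 alternatives. The numbers of genes called higher and lower were 1051 to 3327 and 1677 to 3718 with 1 library left out, 4645 and 5021 without both libraries numbered 3, and 938 and 1586 at an adjusted p below 0.01. Called members were 0 to 3 higher with 1 library left out and 0 higher at an adjusted p below 0.01. ZC3H12D changed sign, to 0.15 with limma-voom and 0.24 without both libraries numbered 3, and ranged from -0.73 to 0.11 with 1 library left out. ZFP36L1 changed sign to 0.030 with library totals alone. Reported target mRNAs had 1 rising with library totals alone, no filter, at least 50 counts, the replicate block or the length and GC offsets, 4 rising without both libraries numbered 3, and 0 to 2 rising and 7 to 18 falling with 1 library left out, with 7 falling at an adjusted p below 0.01. The 7 lists together had 22 rising and 24 falling, 34 rising with library totals alone, 41 and 43 without both libraries numbered 3, 10 and 12 at an adjusted p below 0.01, and 10 to 30 and 12 to 32 with 1 library left out. With longest transcripts the shares in resistant and sensitive cells were 43.4% and 35.8% for RC3H1, 56.6% and 64.2% for RC3H2, 51.35% and 58.4% for ZFP36L1 and 31.0% and 20.2% for ZFP36L2, and 21.4% for ZFP36 in sensitive cells. Same-numbered libraries deviated together at correlations of 0.20, 0.08 and 0.30. Differently numbered ones gave 0.23 (resistant replicate 1 with sensitive replicate 2), 0.02, -0.08, -0.18, -0.24 and -0.31. The main fit did not take the numbers to pair the libraries, and whether libraries of the same number share a source was not tested. The replicate block gave 2859 genes higher and 3582 lower and called ZFP36L2 higher at 0.66. The causes were not tested, apart from the construction of the stricter threshold. Counts were low for ZC3H12D, with at most 20 in a library, and for ZC3H12C in resistant cells, with at most 36.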

Other observations

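The AU-rich nonamer was also set against all tested genes, a comparison chosen after the fold changes were seen. Of 1205 tested genes with the motif in the 3′UTR, 13.9% were called higher and 16.6% lower in resistant cells, at a median log2 fold change of 0.02. Of 12292 tested genes without it, 11.45% were called higher and 15.2% lower, at a median of -0.03. The 3′UTRs with the motif were longer, with a median of 2986 against 1102 bases. Among 3′UTRs of 1000 to 4000 bases, 12.5% of 607 genes with the motif were called higher and 18.45% lower, against 11.5% and 15.4% of 5276 genes without it. Within the reported target mRNAs, 10 of 21 tested genes with the motif fell, against 5 of 19 without it. No test of these shares was made.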
